A study of Mus musculus with 2 samples.

Results

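Single cells of 1 mouse small cell lung cancer (SCLC) tumor, TKO2, were compared at the ends of their Mycn range. The 2 groups hold 673 of the 8330 barcodes of the series. A cell of TKO2 entered if it had at least 1500 unique molecular identifiers (UMIs, each a captured RNA molecule), fewer than 10 UMIs of Scgb1a1, fewer than 3 of Calca and fewer than 5 summed over the macrophage genes Lyz2, C1qa, C1qb, C1qc, Tyrobp and Fcer1g, which left 2367 of its 3816 barcodes. Mycn-high cells had at least 60 Mycn UMIs per 10000 UMIs of the cell (262 cells), Mycn-low cells had 0 or 1 Mycn UMIs (411 cells), and 1694 cells lay between. Since Mycn chose the groups, its difference is a description, as are those of the genes used as filters.

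The series holds 10x Genomics single-cell RNA-seq libraries of 2 primary tumors, TKO1 (4514 barcodes, 5285038 UMIs) and TKO2 (8291430 UMIs, median 1872 per barcode), made to ask how SCLC subtypes are mixed within a tumor. Both mice were labeled Rb-/-, Trp53-/- and Rbl2-/- with a Rosa26 membrane-Tomato or membrane-GFP reporter. The study describes these genes as floxed and deleted in lung cells by Cre, so the label need not hold for other cells. The mice had a genetic background mixed from C57BL/6 and from the 129/SVJ and 129/SvOla strains, and were 8-9 months old. Tumors were started by Adeno-CMV-cre, whose promoter is not restricted to a cell type, and 1 tumor per mouse was dissected 7 months later, digested, cleared of red blood cells and sorted for live cells. All Mycn-high and Mycn-low cells thus come from 1 tumor of 1 mouse in 1 library and were untreated. Cells of 1 library are not replicates, so no test was possible, and every interval given here is an exact 95% interval that covers counting error only. The libraries shared 22 barcodes, of which 0 were Mycn-high and 1 was Mycn-low.

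MYCN is a member of the MYC family of basic helix-loop-helix leucine zipper transcription factors, which bind E-box DNA as dimers with MAX. The family is known for raising ribosome production, translation and nucleotide and amino acid metabolism, and MYC, MYCL or MYCN is recurrently amplified in SCLC. DDX1, a DEAD-box RNA helicase, is encoded next to MYCN and is often amplified with it in tumors. Classical SCLC carries a neuroendocrine (NE) program, with genes of secretory granules and synapses.

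The Mycn values of the high group were 60.2 per 10000 UMIs at the lowest, 79.4 at the median and 1032 at the highest. In the low group they were 0, 2.99 and 6.64, with 190 cells at 0 UMIs and 221 at 1. The groups cannot overlap, since the rule keeps them apart. Just inside the upper threshold lay cells at 60.2, 60.4 and 60.6 per 10000, and just outside it cells at 59.9, 59.8 and 59.7, so that it cuts a continuous range. At the lower end, the 203 cells with 2 Mycn UMIs had a median of 9.71 per 10000. The highest cell held 320 Mycn UMIs of 3101 but 3 Ddx1 UMIs, and the next at 374 and 261 per 10000 held 55 and 21 Ddx1 UMIs.

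Mycn-high cells were somewhat deeper, with a median of 2477.5 UMIs (1513 to 7882) and 1172 genes against 1984 UMIs (1505 to 7389) and 1059 genes in Mycn-low cells. Each cell was therefore thinned at random to 1500 UMIs before UMIs were summed per group, which gave 393000 UMIs for Mycn-high and 616500 for Mycn-low cells. Levels are given as UMIs per 1000000 UMIs (CPM) of these sums, and differences as the log2 ratio of Mycn-high to Mycn-low. After thinning, Mycn stood at 9771 CPM (9464 to 10085) in Mycn-high and 264 CPM (225 to 308) in Mycn-low cells. As a background, 47 TKO2 barcodes with at least 5 UMIs of the macrophage genes (median 2152 UMIs), thinned alike, had 525 CPM of Mycn (370 to 723), and 27.7% of them had a Mycn UMI, against 39.7% of Mycn-low cells. The rule capped Mycn in the Mycn-low cells but not in these barcodes, so their levels and shares cannot be compared on equal terms. Doublets were not called, so whether the Mycn of these barcodes is all background RNA was not tested. How much of the Mycn in Mycn-low cells is background RNA was thus not determined. TKO1 cells chosen by the same filters, but with Calca allowed and without hemoglobin-rich cells (893 cells), had 11.2 CPM (6.27 to 18.5).

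Some cells of the Mycn-low group went against the tumor cell label of the sample. In 5 Mycn-low cells at least 94.8% of the UMIs were of hemoglobin genes, and they had 0 Ddx1 and 0 NE-marker UMIs. No Mycn-high cell was of this kind. They carried Hbb-bs (2617 UMIs against 1 in Mycn-high cells), Hba-a1 (2313 against 0), Hba-a2 (1625 against 0) and Hbb-bt (707 against 0). The upper 95% limits of the log2 ratios of Hba-a1, Hba-a2 and Hbb-bt were -8.64, -8.13 and -6.93. The other cells of either group had at most 1 hemoglobin UMI each, so that these 4 genes, with the lowest ratios of all, rest on 5 cells. A further 6 Mycn-low cells and 0 Mycn-high cells had at least 2 UMIs of T and NK cell markers, 3 of them at least 10. Of the 13 such markers in the table, 10 had a UMI, with a sum of 108 UMIs in Mycn-low and 1 in Mycn-high cells, led by Nkg7 (33 and 1). Cd4, Ncr1 and Il7r were at 0. Of the 16 macrophage and dendritic markers, 8 Mycn-high and 37 Mycn-low UMIs were seen, led by H2-Aa (1 and 13). The lists of B and plasma cells, neutrophils and mast cells, fibroblasts, club, ciliated, alveolar and basal or tuft cells had at most 16 UMIs each in either group. NE markers were present in most cells. The median was 7 NE-marker UMIs in Mycn-high and 8 in Mycn-low cells, and 26 and 33 cells had fewer than 3.

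Ddx1 was the marker that the rule did not use, and it was also higher in the Mycn-high cells. Per 10000 UMIs of each cell, Ddx1 was 0 at the lowest, 84.8 at the median and 779 at the highest in Mycn-high cells. In Mycn-low cells it was 0, 45.8 and 441, and in the cells between, the median was 62.6. The ranges overlapped almost completely, and 11 Mycn-high and 31 Mycn-low cells had no Ddx1 UMI. In the thinned sums, Ddx1 reached 11822 CPM (11484 to 12167) against 6378 CPM (6180 to 6580), a 1.85-fold difference (log2 0.89, 0.83 to 0.95). Ddx1 was thus abundant in Mycn-low cells as well. At least 1 Ddx1 UMI was seen in 90.5% of Mycn-low cells (87.3% to 93.2%) and 93.9% of Mycn-high cells (90.3% to 96.5%), against 36.2% of macrophage-marked barcodes (22.7% to 51.5%) at 823 CPM. The Mycn-low level was 43.6-fold that of the TKO1 cells (146 CPM), although tumor, mouse and library cannot be told apart between TKO1 and TKO2.

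The sums of Ddx1 were higher from bin to bin of Mycn, while single cells followed it weakly. Over 5 bins of Mycn, of 411, 759, 668, 267 and 262 cells, Ddx1 was 6378, 8056, 8819, 10484 and 11822 CPM. Cell by cell the relation was loose, with Pearson's r of 0.113 and Spearman's rho of 0.139 over all 2367 thinned cells, which share 1 library and are given as a description. Within the 1694 cells between the groups they were 0.088 and 0.059, and within the 262 Mycn-high cells -0.018 and 0.056.

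**Figure D1:**
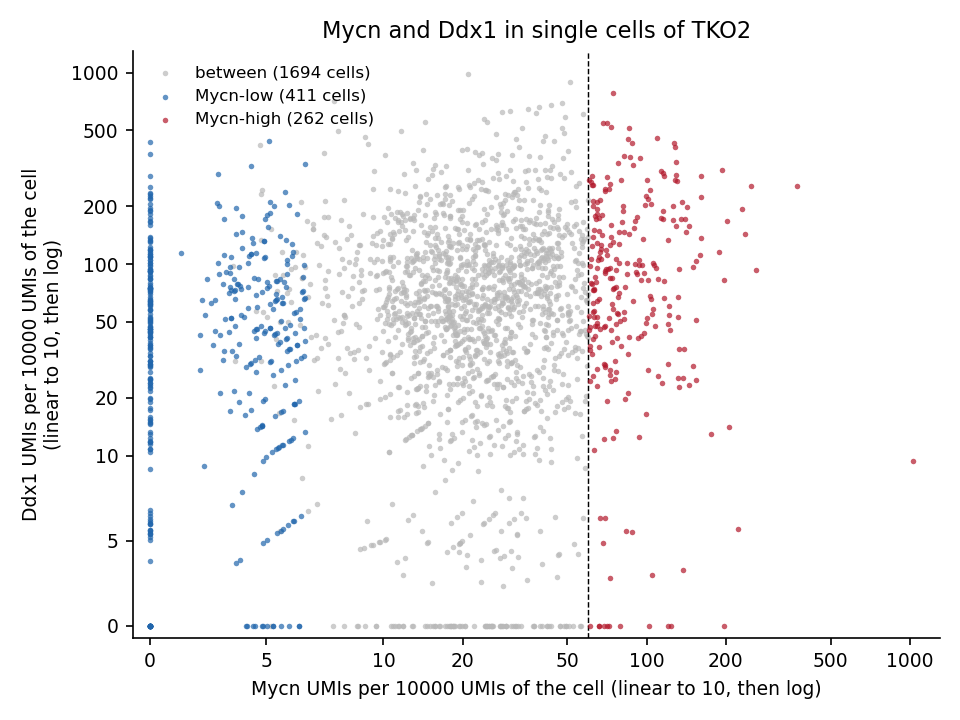
Mycn (x axis) and Ddx1 (y axis) UMIs per 10000 UMIs of each of the 2367 cells, with both axes linear to 10 and logarithmic above it; the dashed line marks 60 Mycn UMIs per 10000. The 262 Mycn-high cells (red) and 411 Mycn-low cells (blue) span nearly the same Ddx1 range, with medians of 84.8 and 45.8 per 10000.

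The other genes around Mycn did not share its pattern. The gene table lists 16 genes within 2 Mb of Mycn, and 5 of them reached 100 UMIs over both groups. In mm10 (GRCm38), Mycn lies at chr12:12936093-12941914 on the minus strand and Ddx1 at chr12:13216973-13249213, also on the minus strand. Fam49a (chr12:12262139-12380965), which encodes a regulator of the actin cytoskeleton, stood at 598 CPM in Mycn-high and 595 CPM in Mycn-low cells, a log2 ratio of 0.01 (-0.24 to 0.25). Nbas (chr12:13269133-13583811), which encodes a protein of Golgi-to-ER transport, stood at 216 and 206 CPM (log2 0.07, -0.34 to 0.48). Neither gene thus differed beyond counting error between the ends of the Mycn range. Both differed from TKO1, however. Fam49a had 3 UMIs there (2.24 CPM), a log2 ratio of Mycn-low to TKO1 of 8.05 (6.50 to 10.34), and Nbas had 9.71 CPM, 21.2-fold below Mycn-low cells. Smc6 (chr12:11265886-11319785), a subunit of the SMC5/6 DNA repair complex, was lower in Mycn-high cells, with 219 against 331 CPM (log2 -0.60, -0.98 to -0.23). The log2 ratio of Smc6 was -0.47 in a second random draw of the thinning and -0.36 in cells of 1500 to 3000 UMIs. For this gene, Mycn-low cells were close to the 358 CPM of TKO1. Ddx1, Fam49a and Nbas were hence far above TKO1 in both groups, and of these 3 only Ddx1 was also higher in Mycn-high cells.

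**Figure D2:**
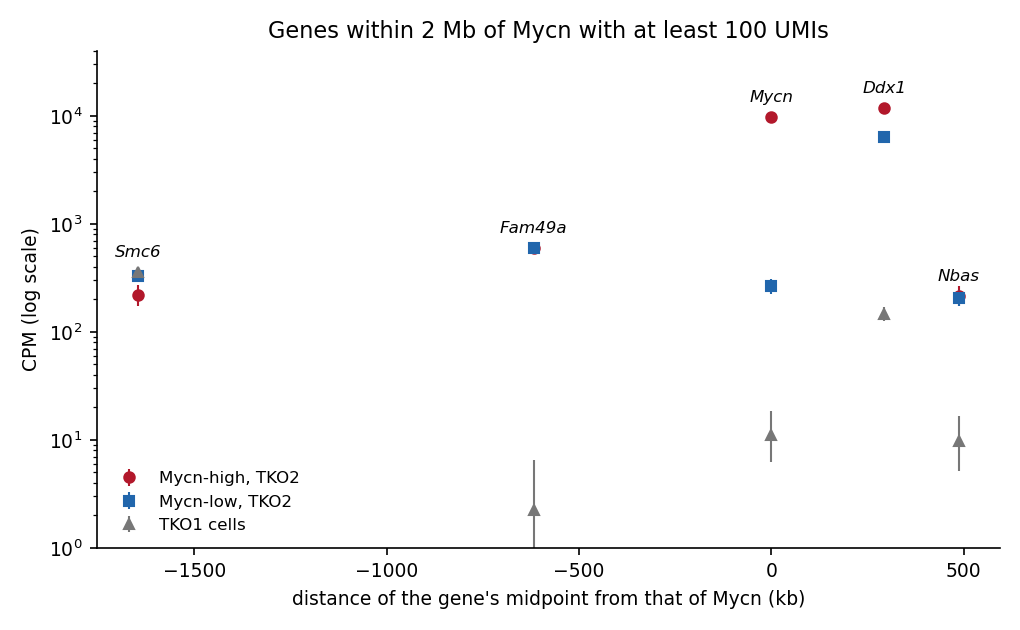
CPM on a log axis (y) of the 5 genes within 2 Mb of Mycn that reached 100 UMIs, at the distance of each gene's midpoint from that of Mycn in kb (x); bars are exact Poisson 95% intervals. Ddx1, Fam49a and Nbas lie far above TKO1 cells (grey) in both Mycn-high (red) and Mycn-low (blue) cells, and Fam49a and Nbas coincide between them.

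Of the deleted genes, Rb1 had 5 UMIs in Mycn-high and 9 in Mycn-low cells (12.7 and 14.6 CPM), Trp53 had 19 and 45 (48.3 and 73.0 CPM), and Rbl2 had 2 in each group. Whether the counted reads lie in the deleted exons is not given in the sources used here, so these levels do not check the genotype. Of the filter genes, Calca had 2 and 16 UMIs and Scgb1a1 4 and 14.

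Across the table, 1702 genes had at least 100 UMIs over both groups, and they held 78.4% of the thinned UMIs. Of these, 91 genes (5.35%), Mycn among them, were at least 1.5-fold higher and 175 (10.3%) at least 1.5-fold lower in Mycn-high cells. At 2-fold, 12 genes (0.705%) were higher and 55 (3.23%) lower. The median log2 ratio was -0.05 with quartiles of -0.31 and 0.21. This balance depended on the scaling. With Mycn, mitochondrial and ribosomal protein genes left out of the total, 7.58% were higher and 7.70% lower, and with the median of all genes subtracted 6.58% and 8.64%. Without the hemoglobin-rich cells and those with T or NK markers, an alternative added after the data had been seen, 82 genes were higher and 183 lower, and Ddx1 had a log2 ratio of 0.86.

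Mycn aside, the genes with the largest ratios in favor of Mycn-high cells were led by Ptgds, a prostaglandin D synthase. It had 165 CPM (128 to 211) against 48.7 CPM (32.8 to 69.5), a log2 ratio of 1.77 (1.12 to 2.44). Bcat1, which starts the breakdown of branched-chain amino acids, followed with 117 against 40.6 CPM (log2 1.53, 0.80 to 2.29). Ribosome assembly genes stood among the first 5. Ppan had 176 against 68.1 CPM (log2 1.37, 0.79 to 1.96), and Rrs1, needed for the large ribosomal subunit, had 285 against 115 CPM (log2 1.31, 0.87 to 1.76). Abce1, which recycles ribosomes, had a log2 ratio of 1.23 (0.61 without cycling cells, those with at least 3 UMIs over 10 genes of mitosis). Eif4ebp1, the repressor of cap-dependent translation, had 1.13, and Mettl1, a tRNA methyltransferase, 1.11 (1.82 when thinned to 1000 UMIs). Of genes of mitochondrial import, Chchd4 had 288 against 130 CPM (log2 1.15), and Mtx1 had a log2 ratio of 1.29. The Mtx1 value moved with the thinning, to 0.45 in a second random draw and 0.55 without thinning. Gadd45g, a stress-induced regulator of growth, had 636 CPM (560 to 720) against 277 CPM (237 to 322), a log2 ratio of 1.20 (0.91 to 1.49). Sox4, a SoxC transcription factor of neural progenitors, had 344 against 154 CPM (log2 1.16, 0.77 to 1.55). Of these 15 genes 9 had fewer than 100 UMIs over both groups and met the minimum for naming (100 CPM and 30 UMIs) through the Mycn-high cells, and this was so through the Mycn-low cells for 4 of the 15 at the other end. The others of the 15 were Tmem97 (1.30), 2410002F23Rik (1.51), Zfp330 (1.23, but 0.65 in the second draw) and 5430416N02Rik (1.16).

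The genes with the largest ratios in favor of Mycn-low cells, after hemoglobin, were Vwf, Id4 and Cd9. Cd9, a tetraspanin of the cell surface, had 2321 CPM (2202 to 2445) in Mycn-low and 445 CPM (382 to 516) in Mycn-high cells, a log2 ratio of -2.38 (-2.62 to -2.15). Vwf, which encodes von Willebrand factor, had 323 CPM (279 to 371) against 50.9 CPM (31.1 to 78.6), a log2 ratio of -2.67 (-3.41 to -2.00). In mm10 they are neighbors, Cd9 at chr6:125460266-125494791 and Vwf at chr6:125546774-125686679. Tmem158, a RAS-induced membrane protein, had 1260.3 against 265 CPM (log2 -2.25, -2.56 to -1.95). Krt18, a keratin of simple epithelia, had 313 against 61.1 CPM (log2 -2.36, -3.04 to -1.74). Id4, an inhibitor of basic helix-loop-helix factors, had 125 against 20.4 CPM (log2 -2.62, -3.88 to -1.57), and Cdh13, a cadherin without a cytoplasmic tail, 118 against 22.9 CPM (-2.37). These groups of cells again overlapped cell by cell. A Cd9 UMI was found in 73.0% of Mycn-low and 34.7% of Mycn-high cells, and in 89.4% of macrophage-marked barcodes, macrophages being a known source of this tetraspanin. Crip1 (-2.27), Clic1 (-2.08), Tagln2 (-1.98) and C1qtnf4 (-1.97) completed the list together with Spp1 (-2.27). Tagln2 had -3.38 without cycling cells and -1.36 without cells that had at least 2 UMIs of other cell types' markers. The Spp1 value rested on few cells, as 3.16% of Mycn-low and 3.44% of Mycn-high cells had a UMI and 1 Mycn-low cell held 74 of 212. Without cells that had at least 2 UMIs of other cell types' markers, Spp1 had a log2 ratio of -0.96.

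Vwf is a marker of endothelial cells, and its carriers were looked at for this reason. Before thinning, 151 Mycn-low cells (36.7%) and 27 Mycn-high cells (10.3%) had a Vwf UMI, and 149 and 25 of them had at least 3 NE-marker UMIs. Of the 10 endothelial markers, 3 had a UMI. Vwf made up most of the sum in Mycn-low cells (199 of 251 UMIs) but not in Mycn-high cells (20 of 50). Egfl7 had 42 and 26, Ramp2 10 and 4, and Pecam1, Cdh5, Kdr, Cldn5, Tie1, Emcn and Esam were at 0. At least 3 NE-marker UMIs were found in 92.0% of all Mycn-low cells (378 of 411) and 90.1% of all Mycn-high cells (236 of 262), the carriers of Vwf included. The share was 12.8% in macrophage-marked barcodes (4.83% to 25.7%). Among macrophage-marked barcodes 2.13% had a Vwf UMI after thinning, against 30.9% of Mycn-low and 6.87% of Mycn-high cells.

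**Figure D3:**
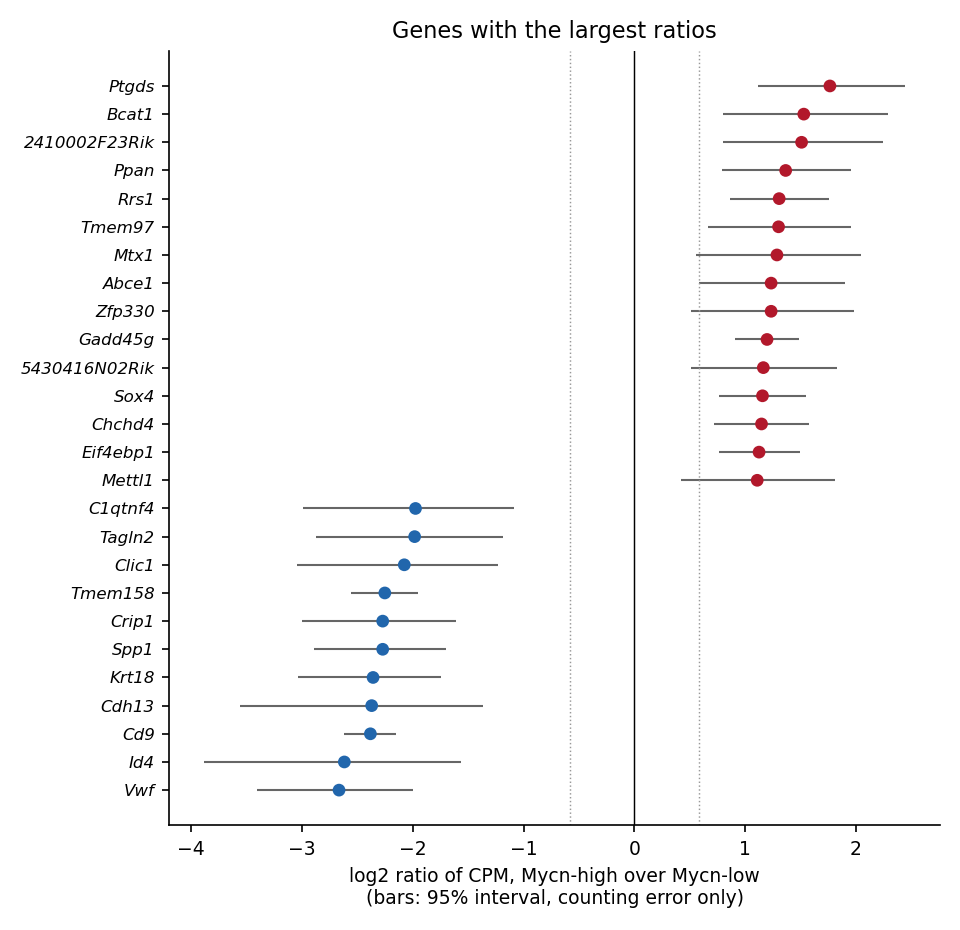
Log2 ratio of CPM (x axis, Mycn-high over Mycn-low) of the 15 genes furthest in favor of Mycn-high cells (red) and of 11 of the 15 furthest in favor of Mycn-low cells (blue), without the 4 hemoglobin genes; bars are exact 95% intervals and dotted lines mark 1.5-fold. The values run from 1.77 (Ptgds) to -2.67 (Vwf), and the genes were chosen as the largest ratios each way, Mycn aside.

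In the cells of the TKO1 tumor, almost without Mycn, the levels of these genes are given as a description, since the genes were chosen for their difference within TKO2. Krt18 had 3151 CPM in TKO1, Cd9 6196 CPM and Vwf 561 CPM, above both groups of TKO2. Tmem158 lay between them with 1008 CPM, and Spp1 below both with 7.47 CPM. Ptgds (8.21 CPM) and Rrs1 (59.7 CPM) also lay below both groups, and Gadd45g was close to the Mycn-low level (256 CPM). The 2 tumors differ in mouse and library as well as in Mycn, which cannot be told apart.

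Among the partners of MYCN, only Max passed the count minimum besides Mycn itself, out of 13 genes of the MYC network. Max, the obligate dimer partner, had 168 CPM in Mycn-high and 94.1 CPM in Mycn-low cells (log2 0.84, 0.30 to 1.37), and over the 5 bins it was 94.1, 114, 118, 152 and 168 CPM. The other MYC genes were scarce. Mycl had 20 and 18 UMIs (50.9 and 29.2 CPM; log2 0.80, -0.19 to 1.81), and Myc had 2 and 1.

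Among canonical targets of MYC, some genes were higher in Mycn-high cells and none was lower past 1.5-fold. Of 24 listed genes 15 were measured and 4 were at least 1.5-fold higher (26.7%, against 5.35% of all tested genes). The interval lay above 0 for 10 of the 15, and the median log2 ratio was 0.42, where all tested genes had -0.05. How many of all tested genes had their interval above 0 is not given here, so such counts describe these lists only. Phgdh, the entry enzyme of serine synthesis, had 170 against 79.5 CPM (log2 1.10, 0.55 to 1.66). Srm, the spermidine synthase, had 1084 against 639 CPM (0.76, 0.56 to 0.96), Ncl, the nucleolar protein nucleolin, 987 against 589 CPM (0.75, 0.54 to 0.96), and Hspe1, a mitochondrial chaperonin, 1005 against 663 CPM (0.60, 0.40 to 0.80). Npm1, another nucleolar protein, had a ratio of 0.56. Ptma, the member with the most UMIs, did not differ beyond counting error (9545 against 9633 CPM; -0.01, -0.07 to 0.05), nor did Id2 (-0.48, -1.13 to 0.14). Ribosome biogenesis genes gave a similar picture. Of 40 listed genes 17 were measured. All 17 lay above 0, where 45.8% of all tested genes did, and 9 of them had their interval above 0. At least 1.5-fold higher were 5 (29.4%, against 5.35% of all tested genes), and 0 were lower, with a median of 0.43. Besides Rrs1 these were Nip7 (221 against 112 CPM, log2 0.98), Gnl3, which encodes nucleostemin (160 against 84.3 CPM, 0.93), Fbl, the methyltransferase fibrillarin (328 against 188 CPM, 0.80), and Gar1 of the H/ACA particle (397 against 261 CPM, 0.60). Nop10, the member with the most UMIs, had 1303 against 1140 CPM (0.19, 0.03 to 0.36), and Emg1 had the lowest ratio (0.07, -0.23 to 0.38).

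Most ribosomal protein genes had a ratio above 0, and none was past 1.5-fold. Of 86 listed genes 81 were measured, and 79 lay above 0, where 45.8% of all tested genes did, with a median of 0.23. The interval lay above 0 for 67 of the 81, a count for which the share of all tested genes is not given here. Their summed level was 250631 CPM in Mycn-high and 214834 CPM in Mycn-low cells. The range ran from Rpl38 (1901 against 1361 CPM, log2 0.48) to Rpl15 (165 against 177 CPM, -0.10, -0.56 to 0.36). Of 27 measured translation factors 2 were at least 1.5-fold higher and 0 lower, a share near the 5.35% of all tested genes, with a median of 0.18. These were Eif4ebp1 and Eif3d (0.59), and Eif5a, the hypusinated factor, stood at 2886 against 2036 CPM (0.50, 0.39 to 0.62). Eef1a1, the elongation factor with the most UMIs, had a ratio of 0.13 and Eif1ax one of -0.22 (-0.55 to 0.09).

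Of 20 genes of the integrated stress response 6 were measured, with a median of 0.73 (0.47 when thinned to 1000 UMIs). At least 1.5-fold higher were 4 (66.7%, against 5.35% of all tested genes), and 0 were lower. Slc3a2, the heavy chain of amino acid transporters, had 153 against 71.4 CPM (log2 1.10, 0.51 to 1.69), Asns, the asparagine synthetase, 280 against 157 CPM (0.83, 0.42 to 1.24), and Psat1 of serine synthesis 168 against 97.3 CPM (0.79, 0.26 to 1.32). Atf4, the transcription factor of this response, had 249 against 156 CPM (0.68, 0.26 to 1.10), whereas Hspa5 (0.31, -0.04 to 0.66) and Cebpg (0.16, -0.42 to 0.74) did not differ beyond counting error. Of 10 measured genes of nucleotide and one-carbon synthesis 2 were higher (20%, against 5.35% of all tested genes), namely Mthfd2, the mitochondrial folate enzyme (344 against 175 CPM, 0.97, 0.60 to 1.35), and Prps1, which makes phosphoribosyl pyrophosphate (293 against 154 CPM, 0.93, 0.52 to 1.33). Tyms, Dut and Gmps leaned the other way (-0.50, -0.50 and -0.43), so that the median of the list was -0.03. Of 11 chaperones Hspa9 (0.83) and Cct3 (0.63) were past 1.5-fold (18.2% of the list against 5.35% of all tested genes), with a median of 0.27, and Hsp90ab1, with the most UMIs, had a ratio of 0.19. On the other side of 0 were Hspa8 (-0.15, -0.29 to -0.01) and Dnaja1 (-0.27, -0.65 to 0.10). Of 10 glycolysis and hypoxia genes 1 was past it, a share near that of all tested genes, with a median of 0.37 (0.20 without thinning). It was Bnip3, a mitophagy receptor (331 against 203 CPM, 0.71, 0.34 to 1.07), and Mif, a cytokine with the most UMIs of this list, stood at 4349 against 3062 CPM (0.51, 0.41 to 0.60).

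The promoters of higher genes were searched for the E-box that MYC-MAX dimers prefer, CACGTG, and for CAGCTG, another E-box. Each equals its own reverse complement, so that both strands are covered, and the 2 do not overlap. In promoters of 300 bases (250 before to 50 after the start of each RefSeq gene, GRCm38.p6), CACGTG occurred in 7.15% of all 32851 promoters and in 10.7% of the 1647 promoters of tested genes. It was present in 12 of 82 promoters (14.6%) of genes at least 1.5-fold higher, Mycn aside, and in 10 of 172 (5.81%) of those lower. CAGCTG occurred in 16.3% of all, 12.3% of tested, 12.2% of higher and 18.0% of lower genes' promoters. Of the 17 measured ribosome biogenesis genes 15 had a promoter, and none of their 17 promoters held CACGTG in this window. Not every gene could be searched, as a promoter was found for 1335 of the 1702 tested genes. The same held for 72 of the 90 higher and 141 of the 175 lower genes. The stretches around the motif in 6 of the higher genes show how different its surroundings are. They are given 5′ to 3′ on the strand of the gene, with CACGTG in capitals, and all lie before the start of the gene.
Gadd45g, chr13:51846506-51846565, plus strand: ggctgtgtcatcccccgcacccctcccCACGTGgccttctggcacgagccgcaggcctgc
Set, chr2:30061835-30061894, plus strand: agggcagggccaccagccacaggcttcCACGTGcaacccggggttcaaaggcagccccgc
Bzw2, chr12:36156884-36156943, minus strand: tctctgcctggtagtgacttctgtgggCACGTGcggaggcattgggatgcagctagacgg
Igfbp2, chr1:72824311-72824370, plus strand: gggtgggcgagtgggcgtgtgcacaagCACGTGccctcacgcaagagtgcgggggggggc
Bnip3, chr7:138909582-138909641, minus strand: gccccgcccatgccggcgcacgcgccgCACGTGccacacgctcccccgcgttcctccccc
Apex1, chr14:50924898-50924948, plus strand: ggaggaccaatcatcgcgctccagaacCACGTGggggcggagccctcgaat
The motif begins 142 bases before the start in Gadd45g and Igfbp2, 134 in Set, 108 in Bnip3, 91 in Bzw2 and 24 in Apex1. Beside Gadd45g and Bnip3, Set, a histone chaperone, had 776 against 425 CPM (log2 0.87, 0.63 to 1.11), Bzw2, a regulator of start codon choice, 405 against 225 CPM (0.84), Igfbp2, an insulin-like growth factor binding protein, 954 against 539 CPM (0.83), and Apex1, a base excision repair enzyme, 336 against 209 CPM (0.68). These matches are descriptions of the sequence, and binding was not measured.

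Epithelial genes had the median furthest from 0 of the 18 lists with at least 4 measured members, the lists of other cell types aside. Of 22 genes 8 were measured, and all 8 lay below 0, with a median log2 ratio of -1.38. At least 1.5-fold lower in Mycn-high cells were 7 (87.5%, against 10.3% of all tested genes), and 0 were higher. Beside Krt18, Cldn7, a tight junction claudin, had 50.9 against 187 CPM (-1.87, -2.64 to -1.18), and Krt8, the partner of Krt18, 160 against 449 CPM (-1.49, -1.91 to -1.09). Krt7 had 260 against 699 CPM (-1.43), Spint2, an inhibitor of epithelial proteases, 204 against 514 CPM (-1.34), Epcam, the epithelial adhesion molecule, 257 against 571 CPM (-1.15), and Cldn3 109 against 201 CPM (-0.88). Cd24a, which had the most UMIs, differed least (860 against 1129 CPM, -0.39, -0.58 to -0.20). In cells with at least 3 NE-marker UMIs the median was -1.37. Without cells that had at least 2 UMIs of other cell types' markers it was -1.21.

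NE markers were uneven between the groups. Of 20 genes 11 were measured and 5 were at least 1.5-fold lower in Mycn-high cells (45.5%, against 10.3% of all tested genes) and 0 higher. The median was -0.52, but -0.22 at a minimum of 300 UMIs and -0.30 without cycling cells. Among these, Foxa2, a factor of endodermal lineages, had 99.2 against 178 CPM (-0.85), Chga, the granule protein chromogranin A, 76.3 against 135 CPM (-0.82), Dll3, an inhibitory Notch ligand, 71.2 against 122 CPM (-0.77), and Snap25, a synaptic fusion protein, 104 against 161 CPM (-0.62). The NE factors Insm1 (0.38, -0.17 to 0.93) and Nkx2-1 (0.20, -0.39 to 0.79) and the most abundant marker, Hes6 (-0.18, -0.37 to 0.02), did not differ beyond counting error. Of 12 measured neuronal genes 3 were higher (25%, against 5.35% of all tested genes) and 0 lower, with a median of -0.07, and the difference between the lists was not tested. These were Sox4, Sox11, its SoxC relative (290 against 144 CPM, 1.01, 0.59 to 1.42), and Map1b of microtubules (198 against 126 CPM, 0.65, 0.18 to 1.12). Sox11 had a log2 ratio of 0.59 without cells that had at least 2 UMIs of other cell types' markers. Stmn1, the member with the most UMIs, had 2455 against 3186 CPM (-0.38, -0.49 to -0.26). Neurod1 was too scarce to compare (6 and 2 UMIs). Among 9 lung and state factors, which share Sox4, Sox11, Foxa2 and Nkx2-1 with these lists, Tcf4, an E-protein, was also higher (176 against 110 CPM, 0.67). In all, 3 of the 9 were higher (33.3%, against 5.35% of all tested genes), Sox4 and Sox11 among them. The 1 that was lower (11.1%) is near the 10.3% of all tested genes, and the median was 0.32. Of the 18 genes of the Notch list, only Dll3 was measured.

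**Figure D4:**
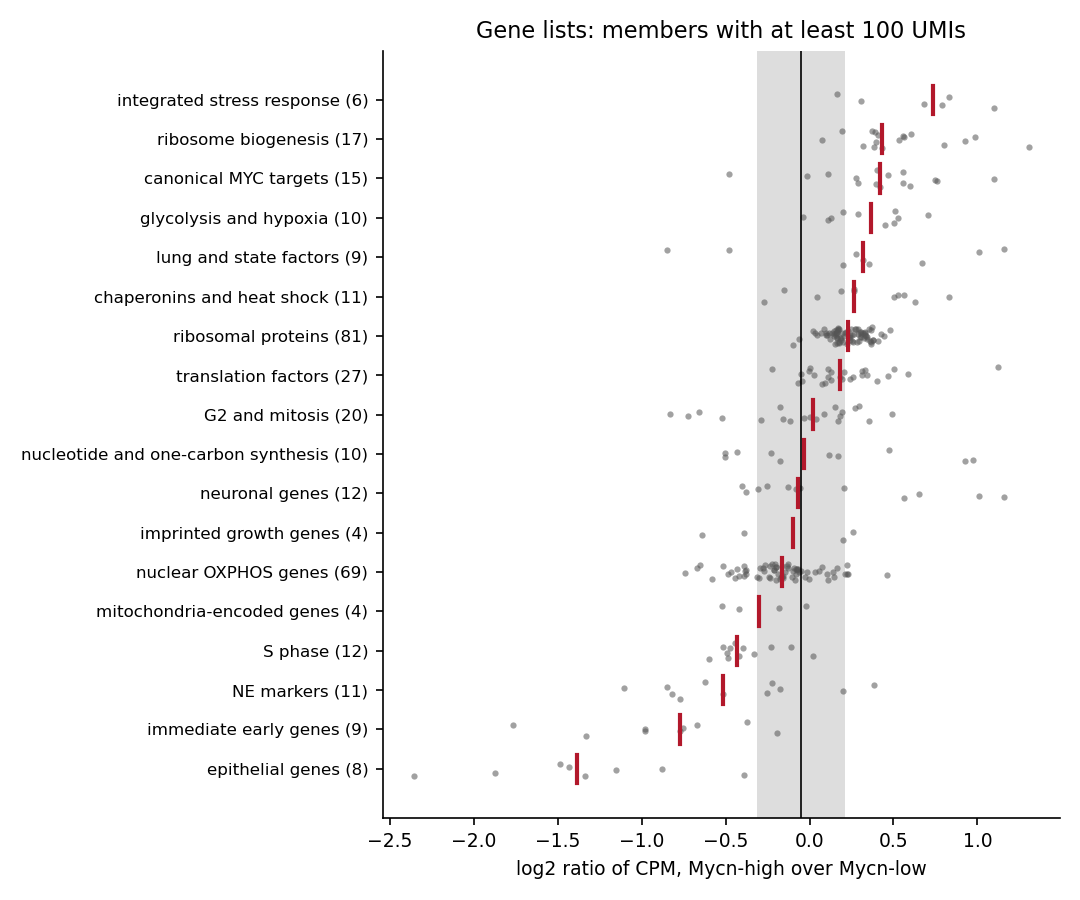
Log2 ratio of CPM (x axis, Mycn-high over Mycn-low) of each measured member (grey points) of 18 gene lists (y axis, number measured in brackets), with the median of each list as a red bar. The black line and grey band give the median of all 1702 genes (-0.05) and their quartiles (-0.31 and 0.21). Medians run from 0.73 for the integrated stress response to -1.38 for epithelial genes.

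Immediate early genes, which respond within minutes to growth factors and to stress, including that of tissue digestion, were mostly lower in Mycn-high cells. Of 9 measured genes all 9 lay below 0, with a median of -0.77. At least 1.5-fold lower were 7 (77.8%, against 10.3% of all tested genes). Egr1, a zinc finger factor, had 45.8 against 156 CPM (-1.77, -2.58 to -1.03), Junb 53.4 against 135 CPM (-1.33, -2.10 to -0.63), and Fos, the partner of JUN in AP-1, 285 against 561 CPM (-0.98, -1.30 to -0.67). Jund, with the most UMIs, had a ratio of -0.38. The part of digestion in this difference was not tested. Of 28 listed genes of class I antigen presentation and interferon, only 3 were measured. All 3 were at least 1.5-fold lower, where 10.3% of all tested genes were. For B2m this moved with the erythroid cells and those with T or NK markers, which were left out together. H2-D1, a class I heavy chain, had 99.2 against 350 CPM (-1.82, -2.35 to -1.32) and kept -1.56 without the erythroid and T or NK cells. B2m, the class I light chain, had 137 against 219 CPM (-0.67, -1.16 to -0.21) but -0.17 without those cells. Ifitm2 had 130 against 216 CPM (-0.73), and its value without those cells was not computed.

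Cycling cells, counted by at least 3 UMIs over 10 genes of mitosis such as Top2a, Mki67 and Cdk1, were more frequent in the Mycn-high group before thinning, while most S phase genes lay below 0. They made up 55.7% of Mycn-high cells (146 of 262; 49.5% to 61.8%), 53.8% of the cells between and 36.5% of Mycn-low cells (150 of 411; 31.8% to 41.4%), so that 116 and 261 cells were left at the ends without them. After thinning to equal depth the shares were 42.0% (35.9% to 48.2%), 42.3% and 33.3% (28.8% to 38.1%), against 12.8% of macrophage-marked barcodes (4.83% to 25.7%). The gap was smaller at equal depth, and the intervals of the thinned shares overlapped. Ube2c, which loads ubiquitin for exit from mitosis, had a UMI in 42.4% of Mycn-high and 28.7% of Mycn-low cells and in 12.8% of macrophage-marked barcodes, but its level was alike (539 against 552 CPM; -0.03, -0.29 to 0.22). Of 12 measured S phase genes 11 lay below 0, where 54.2% of all tested genes did, with a median of -0.43. Past 1.5-fold, 1 was lower and 0 higher, which is no more than the 10.3% of all tested genes that were lower. It was Hells, a chromatin remodeler (130 against 196 CPM, -0.60, -1.10 to -0.11), and Pcna, the replication clamp, had 351 against 477 CPM (-0.44, -0.74 to -0.14). Tipin, with the most UMIs, had a ratio of -0.33. Of 20 measured G2 and mitosis genes 3 were lower, a share near the same 10.3%, and 0 higher, with a median of 0.02. Cdca3 (-0.83), Nusap1 (-0.72) and Cdk1, the mitotic kinase (199 against 313 CPM, -0.66, -1.06 to -0.27), were lower, while Cks1b, a cofactor of cyclin-dependent kinases, stood at 583 against 415 CPM (0.49, 0.23 to 0.75). Hmgb2, with the most UMIs, had a ratio of 0.00. Of only 3 measured CDK inhibitors and Trp53 targets 1 was past 1.5-fold lower, where 10.3% of all tested genes were. It was Cdkn2d (-0.86, -1.56 to -0.20), and Cdkn2a, which encodes p16 and p19ARF, stood at 369 against 503 CPM (-0.45, -0.74 to -0.16). Bax, with the most UMIs, had a ratio of -0.25 (-0.51 to 0.01).

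Nuclear genes of oxidative phosphorylation lay mostly below 0, each by little. This held for 56 of 69 measured genes, against 54.2% of all tested genes, with a median of -0.17 against -0.05. Past 1.5-fold, 3 were lower and 0 higher, a smaller share than the 10.3% of all tested genes. These 3 were Ndufa3 (-0.74), Ndufb2 (-0.67) and Sdhd (-0.65), subunits of complexes I and II. Cyc1 of complex III stood apart with 476 against 346 CPM (0.46, 0.17 to 0.75), and Cox4i1 had the most UMIs. Of 4 measured mitochondria-encoded genes none was past 1.5-fold, and mt-Cytb had the lowest ratio (2959 against 4245 CPM, -0.52). The median share of mitochondrial UMIs per cell was 0.789% and 1.00%. Of 4 measured imprinted growth genes, Nnat was lower (313 against 488 CPM, -0.64, -0.96 to -0.33), and Cdkn1c (-0.39), Snrpn (0.20) and Ndn (0.26) did not differ beyond counting error.

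The 1694 cells between the groups were not used to choose either end, and the levels of a few named genes and of the lists are given over all 5 bins as a description, since the named genes were chosen for the difference between the end bins. Cd9 was 2321, 1304, 966, 479 and 445 CPM from the lowest to the highest Mycn, and Vwf was 323, 209, 146, 84.9 and 50.9 CPM. Both were thus lower at each step through the whole range. Rrs1 was 115, 174, 219, 240 and 285 CPM, and Ptgds was 48.7, 77.3, 91.8, 122 and 165 CPM. Spp1 was not in order and peaked in the second bin with 644 CPM. Over all 5 bins, 8 of the 15 named genes higher in Mycn-high cells and 9 of the 15 lower were in order.

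Some lists ran in order over the bins and others did not. Against the Mycn-low cells, epithelial genes had medians of -0.37, -0.75, -1.14 and -1.38 in the 4 higher bins. Canonical MYC targets had 0.19, 0.31, 0.40 and 0.42, and ribosome biogenesis 0.15, 0.36, 0.44 and 0.43, so that little was added above 40 Mycn UMIs per 10000. The integrated stress response (0.27, 0.36, 0.37, 0.73) and NE markers (-0.21, -0.20, -0.14, -0.52) had their largest step at the top. Neuronal genes (0.17, 0.00, 0.05, -0.07), nucleotide and one-carbon synthesis (0.13, 0.18, 0.33, -0.03), G2 and mitosis (0.04, -0.10, -0.15, 0.02) and imprinted growth genes (0.03, 0.13, 0.24, -0.10) had no such order. The first bin is the reference of all ratios, so that the steps share its counting error, and depth also differed, with medians of 1984 UMIs per cell in the first and 2538, 2605.5, 2623 and 2477.5 in the others before thinning. Genes that mark another state of the tumor were not ordered alike. Car14, a carbonic anhydrase, was 13, 26.4, 25.9, 42.4 and 76.3 CPM, and Crabp2, a retinoic acid carrier, 13, 25.5, 46.9, 64.9 and 48.3 CPM, while Cdkn1c was 174, 179, 201, 235 and 132 CPM.

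**Figure D5:**
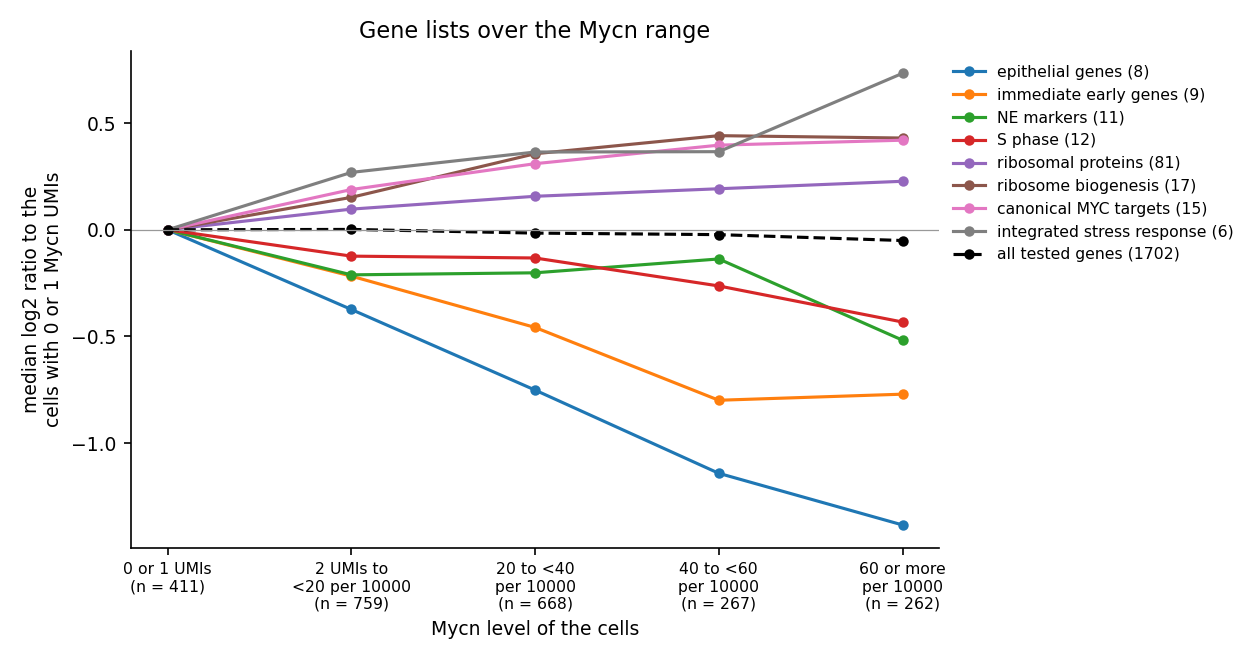
Median log2 ratio to the cells with 0 or 1 Mycn UMIs (y axis) of 8 gene lists over 5 bins of Mycn (x axis, cells per bin in brackets); lines join the bins and the dashed line is the median of all 1702 genes. Epithelial genes are lower in each bin, down to -1.38, MYC targets and ribosome biogenesis end at 0.42 and 0.43, and the integrated stress response reaches 0.73 in the last bin.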

How the data were processed

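Processed files of 2 samples were used. Their values are raw counts of UMIs for each of 27998 genes in each barcode, as the authors deposited them, without normalization. Cell Ranger, Seurat and mm10 are named in the submitters' processing notes, and their versions are not given in the sources used here. The study's methods describe filters on detected genes and mitochondrial share, scaling, log transformation and clustering in Seurat. The deposited counts precede the filter on genes, since 1321 TKO1 and 248 TKO2 barcodes had at most 500 detected genes. The totals were 5285038 UMIs for TKO1 and 8291430 for TKO2.

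Cells were chosen by the rule in the opening, thinned without replacement to 1500 UMIs (seed 1) and summed per group. Log2 ratios carry exact conditional binomial intervals, CPM exact Poisson and shares exact Clopper-Pearson intervals (95%). A group at 0 UMIs was set to 3 UMIs. No test was run, and genes past 1.5-fold were counted among those with at least 100 UMIs. These intervals cover counting error only. A separate interval over list members, or their full range in short lists, was used only to judge whether a list median moved. Doublets were not called, and leaving out the top 5% of UMIs was an alternative. The alternatives without hemoglobin-rich and T or NK cells and with 3 Ddx1 UMIs were chosen after seeing the data. A gene is named if it was deleted, was used by the rule, lies within 2 Mb of Mycn, is among the 15 with the largest ratio each way (at least 100 CPM and 30 UMIs in the higher group), or in each list is the most abundant member or among the 3 with the largest ratios each way (any member of lists of 13 or fewer). Mycn was not counted among the 15. The cells and lists were chosen with earlier results of these data known. Of the gene IDs, 27645 matched GENCODE M21, which gave positions. Promoters came from RefSeq (GRCm38.p6), and all promoters per gene were searched. Protein sequences were not used here. Results on 2 members of the gene lists are not reported here. Python 3.11.15, numpy 2.4.6, scipy 1.17.1, pandas 2.3.3 and matplotlib 3.10.9 were used, and the computation of ratios and intervals was tested on simulated data.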

Additional observations from a re-analysis of the deposited data

How the results depend on the processing

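Both groups come from 1 library, so how the differences vary between tumors was not measured. No paired analysis was possible because each tumor gave 1 library and both groups come from the same one. Over 19 alternatives for 21 results, 360 values stayed within a set range and 37 moved out of it. The range was the counting interval for Ddx1 and 1.5 times for the numbers of genes. For list medians it was an interval over the members of the list, which reflects the spread among genes. Of the 21 results, none that was past 1.5-fold changed sign. Of 18 list medians 14 kept their sign throughout. The other 4 were near 0 and changed sign, namely neuronal genes (-0.07, range -0.38 to 0.19), nucleotide and one-carbon synthesis (-0.03, -0.12 to 0.30), G2 and mitosis (0.02, -0.14 to 0.10) and imprinted growth genes (-0.10, -0.64 to 0.14). The number of genes higher in Mycn-high cells, 91, became 51 when thinned to 1000 UMIs, 164 without thinning, 58 in cells of 1500 to 3000 UMIs, 430 and 15 with minimums of 30 and 300 UMIs, 12 at 2-fold, 55 without cells that had 2 UMIs of other cell types' markers and 51 without cycling cells. The number lower, 175, became 116, 268, 98 (Mycn-low at 0 UMIs only), 695, 43, 55 (2-fold) and 91 (without cycling cells). These counts partly follow the number of genes tested, from 557 to 4294, and of cells left, down to 116 Mycn-high cells without cycling cells.

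The log2 ratio of Ddx1, 0.89, was 1.00 without thinning, 0.81 and 1.04 with Mycn-high from 40 and 80 per 10000, 0.82 with Mycn-low below 5 per 10000, 0.76 in cells of 1500 to 3000 UMIs, 0.97 with Mycn, mitochondrial and ribosomal protein genes left out of the total, 0.79 in cells with 3 NE-marker UMIs and 0.71 in cells with 3 Ddx1 UMIs (added after seeing the data). List medians that moved beyond their own interval were S phase (-0.52 when thinned to 1000 UMIs and -0.52 with Mycn-low at 0 only), lung and state factors (1.28 without cycling cells), neuronal genes (-0.38 at a minimum of 300 UMIs), nuclear oxidative phosphorylation (-0.083 with the reduced total), ribosomal proteins (0.31 with the reduced total, 0.28 with the median of all genes subtracted, 0.18 without cells carrying other cell types' markers) and ribosome biogenesis (0.61 without thinning, 0.31 in cells of 1500 to 3000 UMIs, 0.32 at a minimum of 300 UMIs, 0.38 without cycling cells, 0.38 without the top 5% of UMIs, 0.37 in cells with 3 Ddx1 UMIs). Others moved by over 1.5 times within a wide interval, namely NE markers (-0.52, range -0.62 to -0.22), glycolysis and hypoxia (0.37, 0.20 to 0.50), the integrated stress response (0.73, 0.47 to 0.82), mitochondria-encoded genes (-0.30, -0.41 to -0.07) and translation factors (0.18, 0.11 to 0.26). Lung and state factors (0.32) also had 0.15 without thinning, within their interval. S phase ranged from -0.52 to -0.29 (without thinning). Of 765 values of 41 named genes 3 changed sign from a value past 1.5-fold. B2m had 0.20 without cells carrying other cell types' markers and 0.024 in cells with 3 Ddx1 UMIs, and Hbb-bs 0.45 in the latter, which hold none of the erythroid cells. The causes of the other shifts were not tested.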

Other observations

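A few other genes past 1.5-fold were chosen after their values were seen, and they stand for no group of genes. Nov, a matricellular protein of the CCN family, had 193 CPM in Mycn-high and 560 CPM in Mycn-low cells (log2 -1.53, -1.91 to -1.17), and Prss23, a secreted serine protease, 56.0 against 177 CPM (-1.66, -2.39 to -0.99). Fst, the activin antagonist follistatin, was on the other side with 183 against 101 CPM (0.87, 0.36 to 1.38), as was Cthrc1, a secreted collagen-related protein, with 165 against 84.3 CPM (0.97, 0.42 to 1.53). The metallothionein Mt1, which binds zinc and copper, had 656 against 388 CPM (0.76, 0.50 to 1.02) and Mt2 288 against 175 CPM (0.71, 0.32 to 1.11), whereas Mt3, the form of neurons, had 53.4 against 133 CPM (-1.32, -2.08 to -0.61).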
